A study of Homo sapiens with 12 samples.

Results

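Oxidative phosphorylation makes most of the ATP of a respiring cell. Complex I takes electrons from NADH and complex II takes them from succinate, both hand them to ubiquinone, complex III passes them through cytochrome c to complex IV, and complex IV reduces oxygen. Proton pumping by complexes I, III and IV drives complex V, the ATP synthase. The mitochondrial genome encodes a few hydrophobic core subunits, and the nucleus encodes the rest, so the levels of these nuclear transcripts are one side of a build that also needs mitochondrial translation and assembly factors. Plasma cells, which secrete large amounts of antibody, carry a high demand for ATP and for protein folding.

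The nuclear-encoded oxidative phosphorylation subunits were taken from the table of raw read counts by gene symbol: names that begin with NDUFA, NDUFB, NDUFC, NDUFS or NDUFV and a digit, COX4 to COX8, UQCR or ATP5, and the succinate dehydrogenase genes SDHA to SDHD. The symbols matched 119 of 43735 rows, of which 26 were numbered extra copies of a symbol and 3 were antisense or divergent transcripts, which left 90 members. Complex I had 37 of them, complex II 4, complex III 10, complex IV 19 and complex V 20. NDUFA4 and its paralog NDUFA4L2 were placed with complex IV, to which the NDUFA4 protein belongs in spite of its name. The subunits encoded by the mitochondrial genome were not analysed here.

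The RNA came from MM1S and MM1R, human multiple myeloma cell lines derived from the same patient, of which MM1S responds to glucocorticoids and MM1R is resistant. Each line was left untreated or was given withaferin A (WA), a thiol-reactive steroidal lactone of Withania somnifera, at 1 µM for 3 h, with 3 cultures in each of the 4 groups, and all 12 were grown in RPMI-1640 medium with fetal bovine serum. The labels give the passage of each culture: 16, 22 and 23 for MM1S and 4, 6 and 7 for MM1R, with 1 untreated and 1 WA-treated culture at each, so untreated and treated cultures can be paired by passage, whereas line and passage number cannot be told apart. WA was kept in a solvent, and whether the untreated cultures received it is not given in the sources used here. Each line is a single model of its state, and p-values measure only the spread between these cultures.

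Library totals were alike, from 17625110 to 19368343 reads. The label of a plasma cell tumor was borne out by its markers: 8 of 9 plasma cell genes had at least 10 reads in every library, with a summed level of 8750 to 17900 CPM (reads relative to the library total, after TMM scaling), while the 3 monocyte markers summed to at most 0.669 CPM, and the 3 T cell and 3 erythroid markers to at most 11.9 and 9.55 CPM. The 3 fibroblast markers summed to 2.19 to 4.69 CPM in untreated and 3.74 to 20.4 CPM in WA-treated cultures, with COL1A2 at 0. Of these, COL1A1 rose with WA, by 2.46 in MM1R and 2.78 in MM1S on the log2 scale (adjusted p = 0.0039 and 0.0045), and its part in any result was not tested.

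Of the 90 members, 76 had enough reads to be tested, in all 4 groups together: 32 of complex I, 4 of complex II, 9 of complex III, 14 of complex IV and 17 of complex V. Of these, 68 had more than 250 reads in every library. The other 14 were not tested, and 7 of them were listed at 0 in all 12 libraries. Among those 7 were tissue-restricted forms such as COX6A2 of heart and muscle and COX8C of testis, but also NDUFS1 and NDUFA3, which every respiring cell uses, so a 0 here says only that the row is listed at 0. The other 7 had at most 10 reads, among them COX4I2 and COX7A1, isoforms of lung and muscle. Also among them, with at most 1 read each, were NDUFS3, a core subunit of complex I, and ATP5IF1. The latter is the inhibitor that stops ATP synthase from running in reverse. These low counts, too, say only what their rows hold. NDUFA6 had at most 1 read in its own row, while the highest of 4 further rows of the same symbol held 72 to 159 per library. UQCRC2, a core protein of complex III, was tested on 14 to 27 reads while a second row held up to 23, and ATP5F1E, the epsilon subunit of ATP synthase, on 12 to 35 reads. Levels and folds of these rows may stand for part of a gene, and they are uncertain.

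All 90 members together took 1.14%, 1.12% and 1.13% of all reads in untreated MM1S at passages 16, 22 and 23, and 1.07%, 0.965% and 1.01% after WA. In MM1R they took 1.05%, 1.22% and 1.38% at passages 4, 6 and 7 untreated, and 1.02%, 1.1% and 1.15% after WA. The share was lower after WA in every pair of cultures, and treated and untreated MM1S did not overlap, whereas treated MM1R lay within the untreated range or just under it. It was taken from raw reads without TMM scaling, and abundant genes weigh most in it. At passage 4 of MM1R it fell although only 31 of 76 tested members were lower in TMM-scaled CPM. The share of complex V was 0.413% ± 0.0087 (SD, n = 3) in untreated MM1S and 0.358% ± 0.00314 after WA, and 0.445% ± 0.061 and 0.375% ± 0.0191 in MM1R. These are bulk samples, in which fewer cells of a type and less RNA per cell cannot be told apart.

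**Figure D1:**
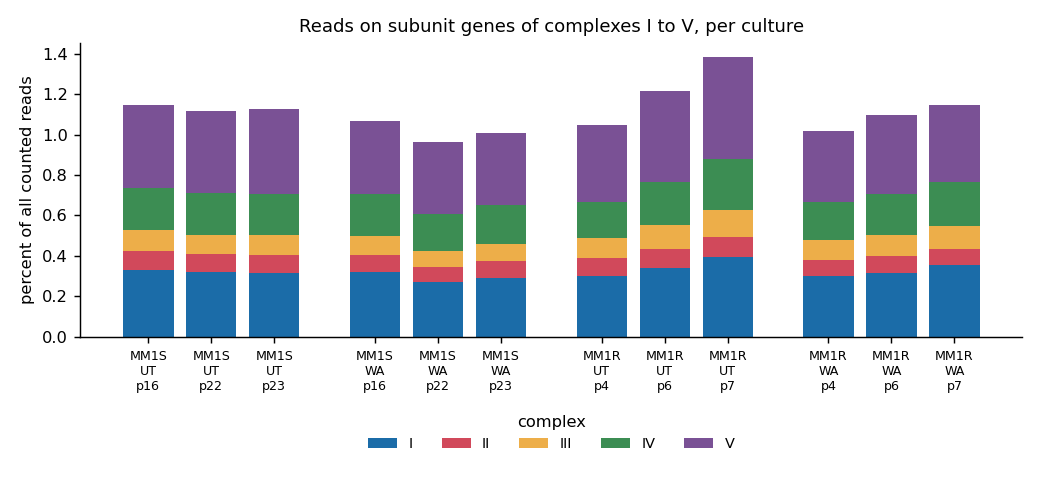
Percent of all reads (y axis) taken by members of complexes I to V (stacked colors) in each of the 12 cultures, ordered by line, treatment and passage. The untreated MM1R bars lie between 1.05% at passage 4 and 1.38% at passage 7, a wider range than that of the untreated MM1S bars (1.12% to 1.14%).

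The untreated MM1R cultures stood apart by passage. The culture of passage 4 had the lowest normalised CPM of the 3 for 72 of 76 members, and that of passage 7 the highest for 72 of 76; among all 14085 genes tested the same held for 38.5% and 38.4%. After WA, passage 4 was still lowest for 70 members and passage 7 highest for 59. Gene groups outside the complexes showed the same order in untreated MM1R: passage 4 was lowest for 74 and passage 7 highest for 75 of 75 mitochondrial ribosomal protein genes, for 70 and 66 of 72 cytosolic ribosomal protein genes, and for 42 and 49 of 54 assembly factor genes. In MM1S the order was less even, with passage 22 lowest for 51 of 76 members after WA. What set the MM1R passages apart was not tested, and results are given below with and without these cultures where that matters.

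Levels were also divided by the length in kilobases (kb) of a single annotated transcript per gene. Over the 12 cultures, the median of the widely expressed subunits was highest in complex IV (259 CPM per kb, 11 genes with a known length) and complex V (185, 15 genes). Complex I (137, 31 genes) and complex II (113, 4 genes) followed, and complex III (72.9, 8 genes) was lowest. Which transcripts these cells use was not tested, and a long annotated one lowers the value: ATP5F1A, at 5761 bases, had 140 CPM per kb. Complex III includes UQCRB (8459 bases, 11.9 CPM per kb) and UQCRC2 (0.563), whose row may stand for part of the gene. The order of the complexes depends on such lengths and rows, and is uncertain. The highest single member was ATP5F1B, the catalytic beta subunit of ATP synthase, at 685 CPM per kb. The c-ring of the synthase, the rotor that protons turn, is encoded by ATP5MC1, ATP5MC2 and ATP5MC3, whose mature proteins are identical. ATP5MC3 gave 40.7% to 48.5% of their summed reads across the cultures, ATP5MC2 34.2% to 39.2% and ATP5MC1 16.5% to 21.0%, so the order of the 3 genes, in reads, was the same in every culture. Per kb the order was another: ATP5MC2 had 389 CPM per kb, ATP5MC1 190 and ATP5MC3 113. Their annotated transcripts have 632, 646 and 2587 bases.

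WA left most of these transcripts close to their untreated level. A single member passed the test in each line, UQCRFS1, and it was lower after WA in both; across all 14085 genes tested, 14% passed in MM1R (6.46% lower) and 10.5% in MM1S (4.23% lower). The test was edgeR's quasi-likelihood test at a Benjamini-Hochberg adjusted p of 0.05. The members leaned downward: 56 of 76 had a lower estimate after WA in MM1R and 56 of 76 in MM1S, against 48.6% and 48.1% of all genes, with median log2 fold changes of -0.06 in each line against 0.01 for all genes in each. Their changes were small, with a median size of 0.08 in MM1R and 0.07 in MM1S against 0.25 and 0.23 for all genes. Only NDUFA4L2 in MM1R, and NDUFA4L2 and COX6B2 in MM1S, had estimates beyond 0.5 in size. The contrast with all genes was not matched for level: 68 of the 76 members had more than 250 reads in every library, whereas genes were tested from a minimum count of 10. The median in MM1R rested on few cultures: it was -0.21 without the untreated culture of passage 4, 0.09 without the untreated culture of passage 7 and 0.04 without the treated culture of passage 4. In MM1S it was -0.0034 without the treated culture of passage 22.

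**Figure D2:**
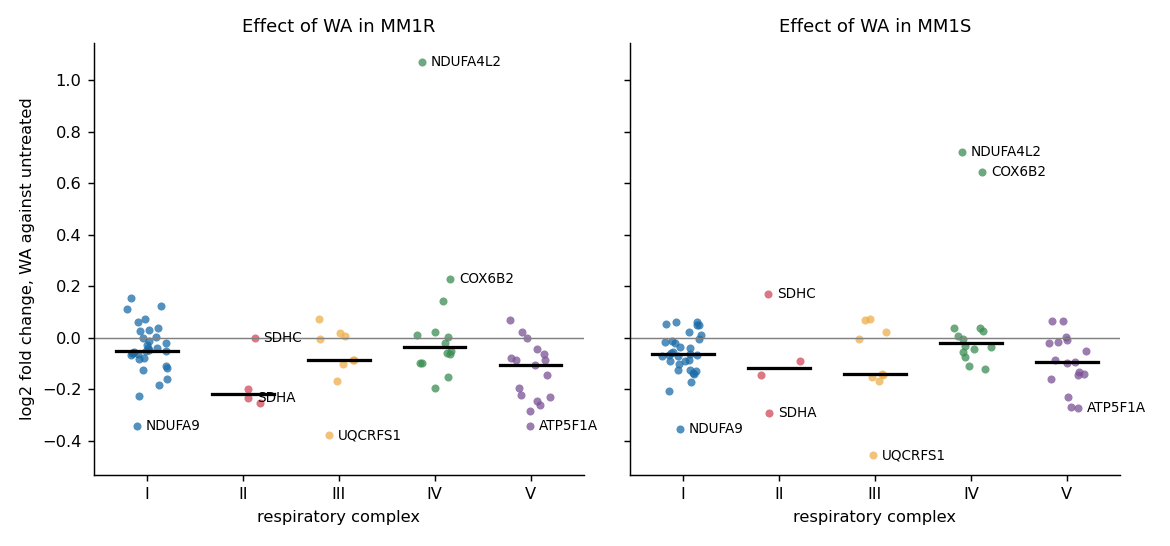
log2 fold change after WA (y axis) of each tested member (points) of complexes I to V (x axis) in MM1R and MM1S, with bars at the medians. Most points lie between 0 and -0.4, the medians of complexes II, III and V lie below those of complex IV in both lines, and NDUFA4L2 stands above the rest at 1.07 in MM1R and 0.72 in MM1S.

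UQCRFS1 is the Rieske iron-sulfur protein, the subunit of complex III that carries an electron from ubiquinol to cytochrome c1. The gene lies at chr19:29696227-29704058 on the minus strand (GRCh37). Its normalised CPM were 138, 119 and 121 in untreated MM1S at passages 16, 22 and 23, and 96.9, 84.9 and 94.0 after WA. In MM1R they were 120, 148 and 159 at passages 4, 6 and 7, and 103, 118 and 107 after WA. All treated cultures lay below all untreated ones of their line. UQCRFS1 fell by 0.46 on the log2 scale in MM1S (SE 0.12, adjusted p = 0.0277) and by 0.38 in MM1R (SE 0.12, adjusted p = 0.0496). The calls were close to the threshold: when each library was omitted singly, the adjusted p ranged from 0.014 to 0.17 in MM1R, where 2 of 12 fits still called it, and from 0.014 to 0.095 in MM1S, where 7 of 12 did. The MM1S call was lost without any of the untreated cultures, or without the treated one of passage 22 or 23, and the MM1R call held only without treated MM1S of passage 16 or untreated MM1R of passage 4. With passage as a block the adjusted p was 0.0027 in MM1S and 0.007 in MM1R.

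Pairing the cultures by passage brought more members past the test, as it did for the whole table, where 29.1% of genes passed in MM1R and 24.1% in MM1S. In MM1R 6 members then passed and in MM1S 5, all lower after WA. UQCRFS1, ATP5F1A, NDUFA9 and SDHA passed in both lines, ATP5F1B and SDHD in MM1R, and ATP5MC3 in MM1S. They belong to complexes I, II, III and V, and no member of complex IV passed in either line. The shares of members, 6 and 5 of 76, were below those of all genes.

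ATP5F1A encodes the alpha subunit of the synthase head, which with the beta subunit forms the catalytic hexamer (chr18:43660214-43684300, GRCh37). Its normalised CPM were 823, 838 and 858 in untreated MM1S and 656, 740 and 690 after WA. In MM1R they were 844, 961 and 1020 untreated and 700, 819 and 708 after WA. Treated and untreated cultures did not overlap in either line. WA changed its estimate by -0.34 (log2) in MM1R (SE 0.11, adjusted p = 0.0502) and -0.27 in MM1S (SE 0.11, adjusted p = 0.13), and with passage as a block the adjusted p was 0.0064 and 0.023. ATP5F1B, its catalytic partner, had 1160, 1240 and 1290 CPM in untreated MM1S and 1030, 1110 and 1150 after WA, and 1110, 1390 and 1560 in untreated MM1R and 1000, 1250 and 1170 after WA. Treated and untreated ATP5F1B overlapped in MM1R and not in MM1S. Its estimate after WA was -0.25 (log2) for MM1R (adjusted p = 0.25; blocked by passage, 0.03) and -0.16 in MM1S (adjusted p = 0.50).

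NDUFA9 encodes an accessory subunit of the matrix arm of complex I (chr12:4758261-4803483, GRCh37). It had 91.0, 89.8 and 88.8 CPM in untreated MM1S and 69.4, 71.6 and 69.6 after WA. In MM1R it had 80.2, 89.2 and 106 CPM untreated and 63.5, 74.3 and 79.2 after WA. The groups did not overlap in either line, and replicate MM1S cultures lay within a few CPM of each other. Its log2 fold change came to -0.34 for MM1R (SE 0.12, adjusted p = 0.0632) and -0.36 in MM1S (SE 0.12, adjusted p = 0.0664); blocked by passage the adjusted p was 0.0072 and 0.0067.

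The 4 genes of complex II did not move as a unit. SDHA, the flavoprotein that oxidizes succinate and so ties the citric acid cycle to the chain (chr5:218418-257197, GRCh37), had 531, 506 and 481 CPM in untreated MM1S and 435, 372 and 431 after WA. In MM1R it had 503, 543 and 589 CPM untreated and 409, 493 and 487 after WA, so the groups overlapped in neither line. Its log2 fold change was -0.23 in MM1R (SE 0.11, adjusted p = 0.19) and -0.29 in MM1S (SE 0.11, adjusted p = 0.11), with 0.038 and 0.016 when blocked by passage. SDHA has near-identical pseudogenes, and how reads shared with them were assigned is not given in the sources used here, so its level is uncertain.

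SDHC and SDHD anchor complex II in the inner membrane. SDHC had 136, 133 and 150 CPM in untreated MM1S and 151, 159 and 162 after WA, and 127, 149 and 174 in untreated MM1R and 143, 154 and 154 after WA. It was the only member of the complex with a higher estimate, in MM1S (0.17, adjusted p = 0.40), where the groups did not overlap, while in MM1R the treated cultures lay within the untreated range (log2 fold change -0.00, 95% interval -0.25 to 0.25). SDHD had 123, 124 and 135 CPM in untreated MM1S and 114, 109 and 122 after WA, and 102, 121 and 143 in untreated MM1R and 94.0, 107 and 105 after WA. Its groups overlapped in MM1R, where the log2 fold change was -0.25 (adjusted p = 0.19; blocked by passage, 0.048), and not in MM1S, where it was -0.15 (adjusted p = 0.51). SDHB, the iron-sulfur subunit, had 115, 117 and 123 CPM in untreated MM1S and 105, 112 and 116 after WA, and 95.1, 116 and 150 in untreated MM1R and 89.5, 108 and 117 after WA, with overlap in both lines (log2 fold changes -0.20 and -0.09, adjusted p = 0.42 and 0.77).

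**Figure D3:**
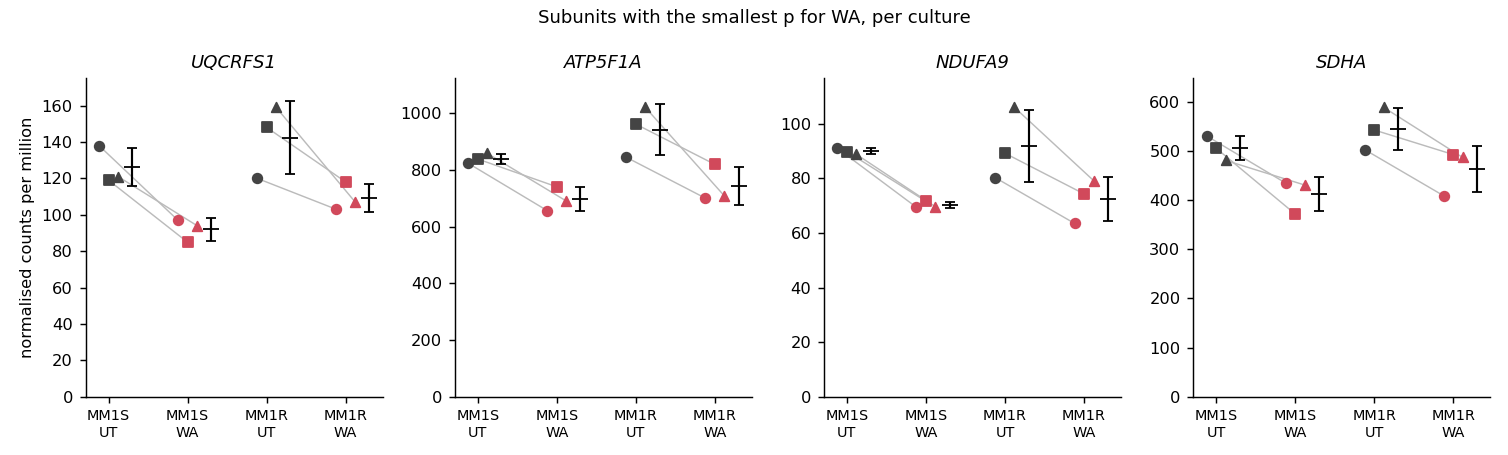
Normalised CPM (y axis) of UQCRFS1, ATP5F1A, NDUFA9 and SDHA in each culture, by line and treatment; symbols mark the passage, grey lines join cultures of the same passage, and bars give the mean ± SD of 3 cultures. Every grey line slopes down from untreated to WA, for example from 91.0 to 69.4 for NDUFA9 in MM1S of passage 16.

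By complex, the median log2 fold change after WA in MM1R and MM1S was -0.22 and -0.12 for complex II, -0.11 and -0.10 for complex V, -0.09 and -0.14 for complex III, -0.05 and -0.07 for complex I, and -0.04 and -0.02 for complex IV. Within complex V, the median over the 5 genes of the catalytic F1 part was -0.25 (MM1R) and -0.16 (MM1S), and over the 3 c-ring genes -0.22 and -0.13, with all 3 c-ring genes lower in each line. The SD between replicates of the members' median log2 CPM was 0.21, close to the size of the most negative of these medians, so the order of the complexes is a description only.

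Taken by pairs of cultures of the same passage, the members' median change after WA was 0.05 at passage 4, -0.07 at passage 6 and -0.15 at passage 7 of MM1R, with 31, 54 and 64 of 76 lower. In MM1S it was -0.01 at passage 16, -0.16 at passage 22 and -0.02 at passage 23, with 40, 56 and 46 lower. At passage 4 of MM1R more members were thus higher than lower. Lower in all 6 pairs were 18 of 76 members, close to the 20% of all genes tested: 5 of complex I, 3 of complex II, 4 of complex III, 2 of complex IV and 4 of complex V. NDUFA4L2 alone was higher in all 6, against 20% of all genes. By groups that did not overlap, 4 members were lower and 1 higher after WA in MM1R (16% and 17.3% of all genes), and 10 lower and 1 higher in MM1S (13.9% and 16.4%). Across the 76 members the log2 fold changes in the 2 lines, which come from different libraries, had a Spearman's rho of 0.58, against 0.80 over all genes tested.

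Isoforms and copies that vary between tissues were low or did not pass. NDUFA4L2, the paralog of NDUFA4 known for its induction by hypoxia, had 0.414, 1.96 and 0.696 CPM in untreated MM1S and 1.19, 2.14 and 1.75 after WA, and 0.416, 0.713 and 0.175 in untreated MM1R and 0.853, 1.01 and 0.913 after WA. Its groups did not overlap in MM1R, on 3 to 18 reads per library, and the log2 fold changes of 1.07 in MM1R and 0.72 in MM1S had adjusted p = 0.25 and 0.41. COX6B2, the testis form of COX6B, had 5 to 26 reads per library, with log2 fold changes of 0.23 in MM1R (SE 0.59) and 0.64 in MM1S (SE 0.56). UQCRHL, an intronless copy of UQCRH that can share reads with it, had 4.82 to 9.21 CPM, with changes of 0.07 in both lines (adjusted p = 0.87 and 0.89). COX7A2L, a COX7A paralog that joins complexes III and IV in supercomplexes, had the most negative estimate of complex IV, -0.19 in MM1R and -0.12 in MM1S (adjusted p = 0.29 and 0.57).

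Other members named for their level or their place in a complex were near their untreated values. NDUFV2, an iron-sulfur subunit of the NADH-binding module, had 401, 389 and 394 CPM in untreated MM1S and 357, 360 and 359 after WA, and 324, 376 and 419 in untreated MM1R and 320, 342 and 341 after WA. In MM1S its groups did not overlap, yet neither change passed (log2 fold change -0.16 in MM1R and -0.14 in MM1S, adjusted p = 0.35 and 0.46). COX5A, a nuclear-encoded subunit of complex IV, had 280 to 306 CPM over the MM1S cultures and 272 to 373 over those of MM1R, with changes of -0.10 in MM1R and -0.06 in MM1S (adjusted p = 0.64 and 0.82). NDUFA2, an accessory subunit of complex I, had 0.11 in MM1R and -0.02 in MM1S, and ATP5F1E -0.00 and 0.06, with SEs of 0.30 to 0.42 on their low counts.

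The promoters of these genes are known for sites of NRF1, of ETS-family factors such as GABP, and of YY1, and the changes after WA can be set beside these letters. RefSeq promoters (GRCh38.p14), of 300 bases from 250 before to 50 after the start, were found for 72 of the 90 members, and each was searched on both strands. The NRF1 motif (GCGCA, any base, then GCGC) stood in a promoter of 17 of these 72 members (23.6%), against 13% of 10403 tested genes counted the same way and 5.78% of 35116 promoters taken singly. The ETS motif CCGGAAG stood in 29.2% of them, against 21.7% and 10.3%, and the YY1 motif AAGATGGCG in 12.5%, against 4.62% and 1.75%. At least 1 motif was found in 40 of 72 (55.6%), against 34.5% of tested genes and 16.1% of single promoters. The NRF1 motif was found for 4 of 7 members of complex III, 2 of 3 of complex II, 4 of 14 of complex V, 6 of 32 of complex I and 1 of 16 of complex IV. Members with it had a median log2 fold change after WA of -0.10 in MM1R and -0.14 in MM1S, and those without it -0.056 and -0.055. For the ETS motif the medians were -0.063 with and -0.065 without in MM1R, and -0.044 with and -0.07 without in MM1S. For the YY1 motif they were -0.108 with and -0.062 without in MM1R, and -0.08 and -0.058 in MM1S. Tested genes of the whole table with the NRF1 motif had medians after WA of -0.057 in MM1R and -0.028 in MM1S. With the ETS motif these were -0.033 and -0.012, and with the YY1 motif -0.051 and -0.025. The median of all genes tested was 0.01 in each line. These splits are descriptions with no test.

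Shown here are promoters of the 4 genes that passed with passage as a block in both lines, 5′ to 3′ on the gene's strand, with motif matches in capitals. That of UQCRFS1 (chr19:29213102-29213401, minus strand) has an NRF1 match 31 bases before the start. That of NDUFA9 (chr12:4648864-4649163, plus strand) has an NRF1 match 80 bases before and a YY1 match 11 bases after the start. That of SDHA (chr5:218070-218369, plus strand) has 4 NRF1 matches, 166, 117, 68 and 19 bases before the start. ATP5F1A has 2 promoter entries and no NRF1 match in either; the printed one (chr18:46098247-46098546, minus strand) has an ETS match 48 bases before the start, and the other holds no match of the 3 motifs.
UQCRFS1: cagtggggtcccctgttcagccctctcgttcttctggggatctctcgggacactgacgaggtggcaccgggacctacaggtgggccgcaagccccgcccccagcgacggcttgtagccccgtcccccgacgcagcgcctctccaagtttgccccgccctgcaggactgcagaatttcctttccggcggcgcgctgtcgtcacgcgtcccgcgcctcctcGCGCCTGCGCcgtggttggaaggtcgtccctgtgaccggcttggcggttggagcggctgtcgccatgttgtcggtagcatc
NDUFA9: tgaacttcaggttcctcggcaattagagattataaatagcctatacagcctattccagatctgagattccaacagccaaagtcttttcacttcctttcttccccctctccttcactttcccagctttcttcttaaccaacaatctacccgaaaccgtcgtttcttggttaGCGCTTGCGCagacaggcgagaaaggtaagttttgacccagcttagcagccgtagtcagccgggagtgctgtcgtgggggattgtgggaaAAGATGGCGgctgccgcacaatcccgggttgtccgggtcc
SDHA: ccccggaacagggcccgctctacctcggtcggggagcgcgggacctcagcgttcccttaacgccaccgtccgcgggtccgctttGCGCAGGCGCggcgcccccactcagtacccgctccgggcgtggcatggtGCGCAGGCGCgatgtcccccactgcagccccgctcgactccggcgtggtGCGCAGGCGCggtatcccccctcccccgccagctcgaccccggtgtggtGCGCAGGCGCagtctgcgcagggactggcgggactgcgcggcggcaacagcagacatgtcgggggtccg
ATP5F1A: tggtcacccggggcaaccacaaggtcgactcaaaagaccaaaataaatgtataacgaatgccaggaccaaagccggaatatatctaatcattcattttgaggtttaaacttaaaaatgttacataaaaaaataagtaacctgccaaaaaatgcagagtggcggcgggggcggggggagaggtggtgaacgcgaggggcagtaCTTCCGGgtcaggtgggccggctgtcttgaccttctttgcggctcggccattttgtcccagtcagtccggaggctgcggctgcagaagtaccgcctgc

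The 4 SDHA matches are evenly spaced. A match is a run of letters and not a measured binding site.

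Genes around the pathway gave a setting for these values. The lists were made by hand, and none was tested as a set. Among all 14085 genes tested, 6.46% fell in MM1R and 4.23% in MM1S, and 14% and 10.5% passed in either direction. Blocked by passage, 29.1% and 24.1% of all genes passed in either direction. Of the 54 tested assembly factors, which build the complexes but are not part of them, 7 fell and 0 rose in MM1R, and 2 fell and 0 rose in MM1S. SDHAF1, needed to insert iron-sulfur clusters into SDHB, had 18.1, 20.8 and 17.3 CPM in untreated MM1S and 10.0, 11.4 and 12.4 after WA, and 18.9 to 22.7 in untreated MM1R and 8.76 to 11.4 after WA. It fell by 0.98 on the log2 scale in MM1R (adjusted p = 0.00078) and by 0.73 in MM1S (adjusted p = 0.0063). TMEM186, which helps to build the membrane arm of complex I, fell by 0.69 and 0.65 (adjusted p = 0.0038 and 0.0065), and NDUFAF4 by 0.82 in MM1R (adjusted p = 0.011) with -0.60 in MM1S (adjusted p = 0.058; blocked by passage, 0.012). By edgeR's quasi-likelihood test 1 of the 54 was higher in MM1R and 3 in MM1S at an unadjusted p under 0.05, and by DESeq2 0 passed as higher in either line. Blocked by passage, 10 passed as lower in each line, and 1 as higher in MM1R.

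Of 75 tested mitochondrial ribosomal protein genes, 12 fell and 2 rose in MM1R, and 7 fell and 2 rose in MM1S, with list medians of -0.25 and -0.18. Of all genes tested, 6.46% fell in MM1R and 4.23% in MM1S. Blocked by passage, 28 and 21 passed as lower and 2 as higher in each line, beside 29.1% and 24.1% of all genes in either direction. MRPL18 rose by 1.60 in MM1R (adjusted p = 0.00031) and 1.46 in MM1S, from 46.4 to 61.7 CPM untreated to 108 to 226 after WA over both lines. MRPS6 was the other gene that rose, by 0.77 in MM1R and 0.74 in MM1S, and MRPL34 fell by 0.67 in MM1R (adjusted p = 0.00087) and by 0.74 in MM1S. Of 72 cytosolic ribosomal protein genes, and of 18 enzymes of the citric acid cycle, 0 passed in either line by edgeR; the medians were -0.01 and -0.02 for the former and -0.15 in MM1R and -0.08 in MM1S for the latter. At an unadjusted p under 0.05, the cytosolic ribosomal list had 3 genes in MM1R and 1 in MM1S, and DESeq2 called 0 in either; blocked by passage, 1 passed as higher and 2 as lower in MM1R, and 1 in each direction in MM1S. The citric acid cycle list had 3 lower in each line and 1 higher in MM1S, DESeq2 called 3 and 2 as lower, and the test blocked by passage did the same, with 1 higher in MM1S. Of 7 carriers and cytochrome c genes, SLC25A4, an exchanger of ATP and ADP, fell by 0.43 in MM1R and 0.40 in MM1S (adjusted p = 0.019 and 0.034), and 3 passed in each line when blocked by passage. Of the 3 subunits whose symbols the naming rule does not reach, none passed by edgeR or by DESeq2: NDUFAB1, the acyl carrier protein of complex I, had -0.20 and -0.15, and CYC1, cytochrome c1 of complex III, -0.32 and -0.39 (adjusted p = 0.21 and 0.14; blocked by passage, 0.012 and 0.0044). At an unadjusted p under 0.05, 0 of the 3 were found in MM1R and 1 in MM1S.

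Among 17 regulators of mitochondrial gene expression, 1 rose and 5 fell in MM1R, and 3 rose and 3 fell in MM1S. Blocked by passage, 2 rose and 7 fell in MM1R, and 4 rose and 5 fell in MM1S. Of all genes tested, 14% passed in MM1R and 10.5% in MM1S, and 29.1% and 24.1% when blocked by passage. GABPB1, the beta subunit of the ETS factor GABP, had 50.8, 52.6 and 51.4 CPM in untreated MM1S and 94.5, 101 and 108 after WA, and 45.2, 55.5 and 58.0 in untreated MM1R and 91.8, 113 and 125 after WA. It rose by 1.05 in MM1R (adjusted p = 0.00017) and 0.97 in MM1S, while GABPA, its DNA-binding partner, had changes of 0.02 and 0.15 that did not pass. POLRMT, the RNA polymerase of mitochondria, had 115, 123 and 116 CPM in untreated MM1S and 66.0, 71.8 and 71.2 after WA, and 181, 186 and 200 in untreated MM1R and 110, 111 and 101 after WA. It fell by 0.82 in MM1R (adjusted p = 0.00011) and by 0.76 in MM1S. TFB2M, a transcription initiation factor of mitochondria, fell by 0.78 and 0.67. TFAM, which packages mitochondrial DNA, fell by 0.61 in MM1R (adjusted p = 0.028) with -0.34 in MM1S (adjusted p = 0.23, and 0.036 blocked by passage). PPRC1, a PGC-1 related coactivator, fell by 1.21 and 0.94 (adjusted p = 0.0084 and 0.035). PPARGC1A, the coactivator PGC-1α, rose by 0.87 in MM1S (adjusted p = 0.042) with 0.74 in MM1R (adjusted p = 0.072), NRF1 rose by 0.37 in MM1S (adjusted p = 0.043) with 0.12 in MM1R (adjusted p = 0.54), and ESRRA had -0.40 and -0.42 (adjusted p = 0.091 and 0.09; blocked by passage, 0.0081 and 0.0076). Whether the effect of WA differed between MM1R and MM1S was tested for every gene, and 0 of 14085 passed.

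In that test of the difference between lines in the effect of WA, no member passed by edgeR's quasi-likelihood test, 0 members had an unadjusted p under 0.05, and 0 members passed by DESeq2; over all genes tested 97 had an unadjusted p under 0.05 and 1 passed by DESeq2. The smallest p among members was 0.206, for NDUFC1, a small subunit of the membrane arm of complex I, with a difference of 0.27 (95% interval -0.16 to 0.69; log2 fold change 0.12 in MM1R and -0.14 in MM1S). ATP5F1C, the gamma subunit that turns within the synthase head, followed with -0.25 (edgeR's unadjusted p = 0.207), and SDHC with -0.17 (edgeR's unadjusted p = 0.311). The adjusted p was 1 for all 3. The median SE of this difference over the members was 0.21, so a difference had to be well above that size to be detectable with these cultures.

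Between the lines, the members were higher in MM1R more often than in MM1S. Without treatment 66 of 76 had a higher estimate in MM1R, with a median log2 difference of 0.17 against 0.01 for all genes, and with WA 62 of 76, with a median of 0.14 against -0.01. The test called 3 members in each state, NDUFS7, UQCR11 and ATP5F1D, all higher in MM1R; 11.9% of all genes tested passed without treatment (6.44% higher) and 12% with WA (6.34% higher). At the stricter limits of adjusted p under 0.01 and a log2 difference of at least 1, 2.97% of all genes and 0 members passed without treatment, of the 6 with an unadjusted p under 0.05. The median depended on the passage: without the untreated MM1R culture of passage 7 it was 0.04, and without that of passage 4 it was 0.29. With WA it was 0.09 without the treated MM1R culture of passage 7 and 0.23 without that of passage 4. Groups did not overlap for 4 higher and 0 lower members without treatment (16.6% and 15.7% of all genes), and for 9 higher and 3 lower with WA (14.8% and 14.4%).

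NDUFS7 encodes the iron-sulfur subunit that holds the last cluster before ubiquinone in complex I. It had 100, 108 and 94.9 CPM in untreated MM1S and 146, 170 and 194 in untreated MM1R, and 96.9, 85.2 and 95.7 against 133, 150 and 189 with WA. Every MM1R culture was above every MM1S culture. The log2 difference was 0.75 (SE 0.14, adjusted p = 0.00324) without treatment and 0.77 (SE 0.14, adjusted p = 0.00285) with WA. WA itself gave changes of -0.11 in MM1R and -0.13 in MM1S, neither of which passed.

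UQCR11, a small accessory subunit of complex III, had 204, 195 and 195 CPM in untreated MM1S and 270, 333 and 389 in untreated MM1R, and 198, 159 and 181 against 250, 315 and 359 with WA. ATP5F1D, the delta subunit of the central stalk of ATP synthase, had 188, 181 and 156 CPM in untreated MM1S and 227, 269 and 289 in untreated MM1R, and 169, 137 and 143 against 209, 240 and 261 with WA. Neither gene overlapped between the lines in either state. The log2 difference of UQCR11 was 0.74 (SE 0.15, adjusted p = 0.00634) and 0.78 with WA (adjusted p = 0.00453), and that of ATP5F1D was 0.58 (SE 0.13, adjusted p = 0.011) and 0.66 with WA (adjusted p = 0.0049). ATP5F1D did not pass without the untreated MM1S culture of passage 23 (adjusted p = 0.066), and the other calls held whichever library was omitted.

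These 3 genes lie within the first 2 Mb of the short arm of chromosome 19 (GRCh37): ATP5F1D at chr19:1241745-1244824 and NDUFS7 at chr19:1383526-1395588 on the plus strand, and UQCR11 at chr19:1597168-1605472 on the minus strand. This was noticed after their values were seen. Their neighbours differed between the lines in the same direction. Of 48 tested genes in those first 2 Mb, which include the 3 themselves, 46 were higher in untreated MM1R. Of the 48, 29 passed the test as higher and 0 as lower, and the median log2 difference was 0.58. With WA 45 were higher, 29 passed, and the median was 0.55. The untreated median was 0.31 from 2 to 4 Mb, 0.17 from 4 to 6 Mb and 0.09 from 6 to 10 Mb. It was 0.12 from 10 to 15 Mb, 0.07 from 15 to 20 Mb, -0.03 from 20 to 40 Mb and 0.105 from 40 to 60 Mb. Within 1 Mb of UQCR11, 59 of 61 tested genes were higher in untreated MM1R, within 1 Mb of NDUFS7 59 of 60, and within 1 Mb of ATP5F1D 52 of 53. These windows overlap and each includes the other called genes, so they describe the same region and are not separate counts. Of the 90 members, 10 tested ones lie on chromosome 19. Without the 3 genes, the members' median was 0.17 untreated (63 of 73 higher) and 0.13 with WA (59 of 73 higher).

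**Figure D4:**
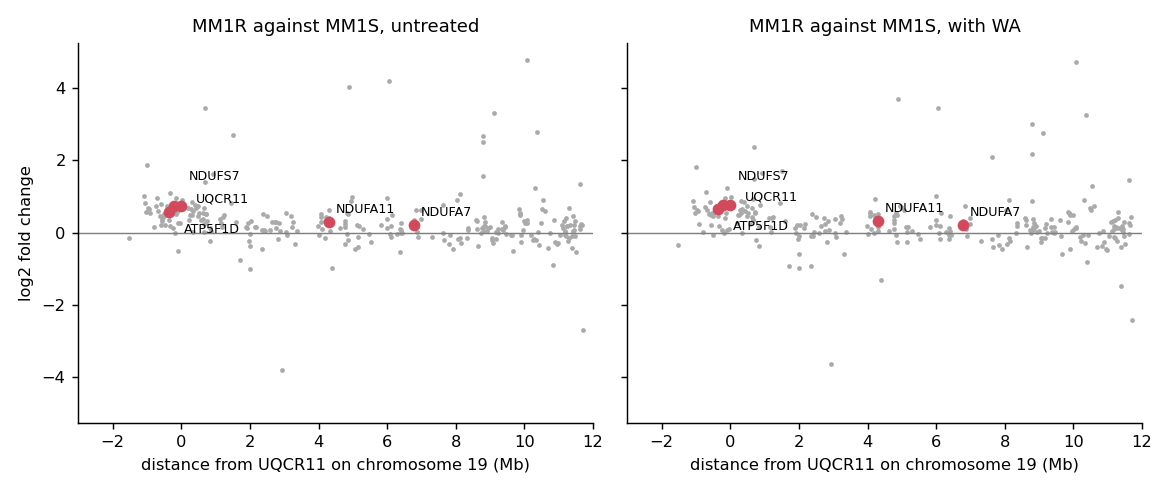
log2 difference of MM1R against MM1S (y axis), untreated and with WA, for tested genes on chromosome 19 by distance from UQCR11 in Mb (x axis); grey points are other genes and red points members. Within 1 Mb of UQCR11, 59 of 61 genes lie above 0 untreated, and the points come down towards 0 with distance.

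The promoters of NDUFS7 and UQCR11, 2 of the 3 genes that passed in both states, are printed here, and that of ATP5F1D was not analysed (GRCh38.p14, RefSeq; motif matches in capitals). That of NDUFS7 (chr19:1383657-1383956, plus strand) has a YY1 match 18 bases after the start. That of UQCR11 (chr19:1605413-1605712, minus strand) has ETS matches 117 and 97 bases before the start and NRF1 matches 29 and 10 bases before it.
NDUFS7: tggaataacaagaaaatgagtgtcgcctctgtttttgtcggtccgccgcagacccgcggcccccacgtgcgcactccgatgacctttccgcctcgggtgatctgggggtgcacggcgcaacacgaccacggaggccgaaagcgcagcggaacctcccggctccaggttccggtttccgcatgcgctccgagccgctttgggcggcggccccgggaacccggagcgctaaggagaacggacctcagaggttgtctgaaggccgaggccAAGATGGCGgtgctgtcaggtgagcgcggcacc
UQCR11: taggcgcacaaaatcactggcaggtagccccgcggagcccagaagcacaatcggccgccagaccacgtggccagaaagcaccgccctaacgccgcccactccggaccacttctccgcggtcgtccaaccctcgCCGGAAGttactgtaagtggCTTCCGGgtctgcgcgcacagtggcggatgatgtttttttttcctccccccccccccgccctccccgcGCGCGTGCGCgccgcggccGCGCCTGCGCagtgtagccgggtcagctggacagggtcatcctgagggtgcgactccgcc

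By complex, the median difference between lines was 0.22 untreated and 0.25 with WA for complex III, where all 9 tested members were higher in MM1R in both states, and 0.21 and 0.23 for complex I, with 29 of 32 higher in both. It was 0.15 and 0.10 for complex V, 0.10 and 0.08 for complex IV, and 0.07 and -0.07 for complex II. Among the 4 SDH genes the untreated differences ran from -0.06 for SDHD to 0.11 for SDHA, and none passed (adjusted p from 0.59 to 0.93). NDUFA4L2 had the most negative difference, -1.21 untreated (adjusted p = 0.20), and ATP5ME, a membrane subunit of the synthase with 24 to 109 reads per library, the most positive, 0.83 untreated (adjusted p = 0.13) and 1.04 with WA (adjusted p = 0.064). UQCRHL had 0.37 untreated (adjusted p = 0.29), COX7A2L 0.18 (adjusted p = 0.35) and COX6B2 -0.05 (adjusted p = 0.97). UQCRFS1 had 0.17 untreated and 0.25 with WA, and neither passed.

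**Figure D5:**
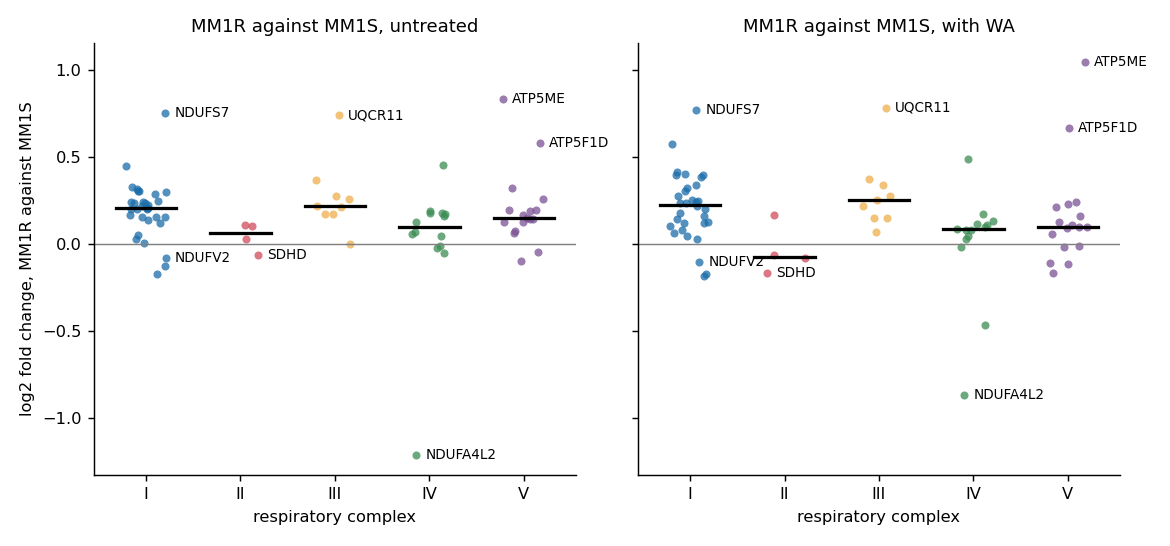
log2 difference of MM1R against MM1S (y axis) of each tested member (points) of complexes I to V (x axis), untreated and with WA, with bars at the medians. The medians of complexes I and III lie above 0.2 in both states and those of complex II near 0.

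Some other gene groups leaned the same way between the lines, and some did not. Of all genes tested, 6.44% passed as higher in MM1R without treatment and 6.34% with WA by edgeR. By DESeq2, 14.8% and 14.9% passed in either direction. The groups were not tested as sets. Of 72 cytosolic ribosomal protein genes, 71 had higher estimates in untreated MM1R, with a median of 0.32, and 8 passed as higher and 0 as lower (18 and 0 by DESeq2); with WA 10 passed as higher. Of 75 mitochondrial ribosomal protein genes 59 were higher (median 0.12; 4 passed as higher and 1 as lower), and of 54 assembly factors 36 (median 0.10; 1 passed in each direction). With WA the medians of these 3 lists were 0.33, 0.08 and 0.02. Of 17 regulators of mitochondrial gene expression, 9 were higher in untreated MM1R (median 0.0048; 1 passed as higher) and 6 with WA (median -0.13; 1 passed as higher and 2 as lower). Of 18 citric acid cycle enzymes, 12 were higher untreated (median 0.08; 1 passed as higher) and 10 with WA (median 0.02), where 0 passed by edgeR, 1 passed as higher by DESeq2, and 1 was higher and 2 lower at an unadjusted p under 0.05 by edgeR. The members' differences between lines had a Spearman's rho with the GC content of their transcripts of 0.38 untreated and 0.41 with WA over 73 genes, against 0.29 and 0.31 over 12394 genes, a description across genes that share the libraries. The part of GC content and of passage in the differences was not tested.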

How the data were processed

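Cultures of MM1S and MM1R, untreated or given WA, were profiled by RNA sequencing. The authors aligned reads to hg19 and deposited raw counts per gene symbol, whole numbers with no normalization, along with a table of normalized values and comparisons of their own that was not used here. Submitters' processing notes name STAR 2.7.3a, FastQC 0.11.5 and DESeq2; the annotation and strand setting are not given in the sources used here, so antisense overlaps and near-identical copies can share reads. Totals were 17625110 to 19368343 reads per library, and precision was limited by 3 cultures per group.

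Genes with enough reads (filterByExpr, minimum count 10) numbered 14085. All 12 libraries entered one fit of 4 group means in edgeR 4.0.16 (R 4.3.3, limma 3.58.1) with TMM scaling, and the quasi-likelihood test was adjusted by Benjamini-Hochberg over all genes tested, with calls at 0.05. CPM are TMM-scaled, and SEs come from the test statistic. The code was tested on simulated data. Same-passage cultures deviated together from their group means. The r was 0.43, 0.22 and 0.25 at passages 4, 6 and 7, and 0.74, 0.26 and 0.49 at 16, 22 and 23. As each was over 0.1, passage numbers were taken to pair untreated with treated cultures. At passages 22 and 23 of MM1S the highest r with another passage was 0.42, so passage 22 matched another passage better than its own. Fits with passage as a block are given where they change a call. No replicates looked like one library deposited again (chi-square over its degrees of freedom 8.06 to 44.3 between them).

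Members named with values were those called in a comparison, in each complex the highest and lowest change after WA and the highest level, all SDH genes, isoforms and copies, ATP5IF1, the 3 smallest interaction p, and up to 3 called genes of each list plus selected regulators; other genes were named after their values were seen. Members and lists were chosen with earlier results of these data known. Alternatives were DESeq2 1.42.0, its size factors, other filters, single libraries left out, only the 6 libraries compared, passage blocks and stricter limits; leaving out both MM1R cultures of passage 4 or of passage 7 was chosen after seeing the data. Gene coordinates are GENCODE on GRCh37, found for 88 members.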

Additional observations from a re-analysis of the deposited data

How the results depend on the processing

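The members called after WA in MM1R (1, UQCRFS1) numbered 2 with DESeq2's size factors, 0 with no filter on low counts (UQCRFS1 adjusted p = 0.053), 0 when every library needed 10 reads (0.06), 3 with DESeq2, 0 with only the 6 libraries compared (0.068), 6 with the replicate block in edgeR, 7 with it in DESeq2 (adding ATP5PB), 0 at an adjusted p of 0.01, and 0 without both cultures of passage 7. With single libraries left out they numbered 0 to 5. Those in MM1S (1, UQCRFS1) numbered 4 with DESeq2, 2 with only the 6 libraries, 5 and 6 with the replicate block in edgeR and DESeq2 (the latter adding ATP5F1D), 0 at 0.01, 2 without both MM1R cultures of passage 4 or of passage 7, and 0 to 2 with single libraries left out. Between the lines, 3 became 5 in both states with no filter, adding NDUFA4 and ATP5ME, and 9 untreated and 6 with WA without both MM1R cultures of passage 4; untreated, 0 passed at 0.01 with a log2 difference of 1. Single libraries left out gave 2 to 6 untreated and 3 to 7 with WA. Medians of all members moved by less than the SD between replicates, 0.206, under every alternative run for them. That SD is larger than the members' medians after WA, -0.06 in each line, so a change of sign can lie within it. In MM1R the median was 0.09 without the untreated culture of passage 7 and 0.04 without the treated culture of passage 4. It was 0.00167 without both cultures of passage 7 and -0.10 without both of passage 4. Medians of each complex after WA had a single alternative, ubiquitous subunits only. It left out no tested member of complexes I, II and V, so their medians could not change. Those of complexes III and IV moved by less than 0.206. Medians of the complexes between lines were run under no alternative. The 0 calls on the difference between lines held under every alternative run, and the replicate block changed no member's call beyond those named here or in the text. Some small estimates changed sign. When every library needed 10 reads, ATP5F1E in MM1R was 0.0369, SDHC in MM1R 0.0402 and NDUFA2 in MM1S 0.000116; with the replicate block SDHC in MM1R was 0.0108 in edgeR and 0.000534 in DESeq2. With single libraries left out, estimates that crossed 0 ranged in MM1R from -0.549 to 0.4 for ATP5F1E, -0.209 to 0.0082 for COX5A, -0.313 to 0.799 for COX6B2, -0.159 to 0.346 for NDUFA2, -0.11 to 0.119 for SDHC, -0.232 to 0.03 for UQCR11 and -0.128 to 0.318 for UQCRHL. In MM1S they ranged from -0.208 to 0.206 for ATP5F1E, -0.438 to 0.204 for NDUFA2 and -0.0152 to 0.176 for UQCRHL, and between untreated lines from -0.626 to 0.414 for COX6B2, -0.165 to 0.17 for SDHB, -0.0167 to 0.212 for SDHC and -0.195 to 0.0527 for SDHD. The cause of these changes was not tested. Members with under 100 reads, such as NDUFA4L2 and COX6B2, were limited by depth.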
